A study of Mus musculus with 3 samples.

Results

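CAPS was used to read 5hmC in the gene bodies of E14 mouse embryonic stem cells (mESCs), an established pluripotent line, and each gene was described by its own level. A gene body was taken from 1 kb after the annotated start to the annotated end, so that most of the start-site region was left out. Of 21418 autosomal protein-coding genes in the GENCODE M1 annotation of mm9, 15864 were 5 kb long or more, and 15452 of these had at least 500 CAPS base calls and were kept. The other 412 long genes had too few base calls, and 5554 genes were under 5 kb. The cells were grown with serum and LIF plus PD0325901, an inhibitor of MEK, and CHIR99021, an inhibitor of GSK3, and all libraries came from gDNA of these cells. CAPS, TAPSβ and PS were sequenced in 1 library each, with no replicate and no second condition, and since they hold DNA alone, the cell type was not checked by expressed markers. No p-value is therefore given. Intervals of levels are exact (Clopper-Pearson) 95% binomial intervals. They cover counting error only and treat calls of a read at neighbouring cytosines as independent. Intervals of ratios are approximate 95% intervals on the log scale, with the same limits. Those of medians and correlations over genes treat genes as independent.

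5hmC is made from 5-methylcytosine (5mC) by the TET dioxygenases, of which Tet1 and Tet2 act in mESCs, and it can be oxidized further to 5fC and 5caC and removed by base excision repair. It therefore needs methylated DNA as its substrate, and gene bodies, most of which are methylated while CpG-rich start sites are not, are a usual place for it. In CAPS, 5hmC is oxidized to 5fC, and 5fC and 5caC are then reduced by 2-methylpyridine borane and read as T, so 5fC and 5caC that were already there are read as well. PS reduces the DNA with pyridine borane, without the oxidation, and reads 5fC and 5caC, and TAPSβ reads 5mC after 5hmC has been blocked. The 5hmC level of a gene is the share of its CAPS base calls at CpG cytosines, on both strands, that read as modified. It was corrected neither for background nor for incomplete conversion of 5hmC. All levels, fold ranges and ratios below are therefore of this raw share.

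The CAPS library listed 39990774 CpG cytosines with 377288829 base calls, a median depth of 9 per cytosine, and 3.14% of all calls were modified. The same share was 57.5% in TAPSβ and 0.246% in PS. As a background measured in the same library, 7738 gene starts with a TAPSβ level under 2% were taken with 500 bp on either side. Their CAPS level was 0.762% (0.756 to 0.767%) with cytosines that are also high in PS left out. Inside annotated genes the CAPS level was 3.39%, and outside them it was 2.90%.

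To show what a high and a low gene body look like at base resolution, 300-bp windows are printed in the direction of the gene (NCBIM37, the assembly also called mm9). For Kcnk5, Slc25a36 and Ski, the 3 genes with the highest levels among those with at least 5000 base calls when cytosines that are also high in PS are left out, the window with the most modified CAPS calls is shown, and for Tchh, the lowest gene by the same choice, the window with the most CpGs. Capitals mark CpGs at which at least 1 CAPS base call was modified, and CpGs in lower case had none. The Ski window begins inside a CpG, of which only the G is in it.
Kcnk5, chr14:20968383-20968682: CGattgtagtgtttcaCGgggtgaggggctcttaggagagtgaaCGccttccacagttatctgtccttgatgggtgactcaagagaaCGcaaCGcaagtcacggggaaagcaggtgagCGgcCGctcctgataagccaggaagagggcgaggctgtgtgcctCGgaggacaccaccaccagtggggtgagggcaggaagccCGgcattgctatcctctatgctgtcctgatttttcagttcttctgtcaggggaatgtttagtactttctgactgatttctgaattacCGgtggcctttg
Slc25a36, chr9:97001812-97002111: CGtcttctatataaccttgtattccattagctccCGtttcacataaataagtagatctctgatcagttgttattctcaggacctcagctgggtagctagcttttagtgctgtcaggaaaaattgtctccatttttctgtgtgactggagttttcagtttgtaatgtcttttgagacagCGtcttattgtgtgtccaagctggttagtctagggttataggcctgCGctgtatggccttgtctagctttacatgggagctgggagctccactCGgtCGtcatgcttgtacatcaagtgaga
Ski, chr4:154582504-154582803: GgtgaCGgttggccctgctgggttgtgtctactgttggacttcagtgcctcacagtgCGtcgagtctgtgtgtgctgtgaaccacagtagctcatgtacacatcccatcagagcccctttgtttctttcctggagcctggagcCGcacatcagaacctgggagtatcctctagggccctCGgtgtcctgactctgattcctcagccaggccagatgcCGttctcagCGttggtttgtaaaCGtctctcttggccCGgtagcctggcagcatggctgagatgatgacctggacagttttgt
Tchh, chr3:93251068-93251367: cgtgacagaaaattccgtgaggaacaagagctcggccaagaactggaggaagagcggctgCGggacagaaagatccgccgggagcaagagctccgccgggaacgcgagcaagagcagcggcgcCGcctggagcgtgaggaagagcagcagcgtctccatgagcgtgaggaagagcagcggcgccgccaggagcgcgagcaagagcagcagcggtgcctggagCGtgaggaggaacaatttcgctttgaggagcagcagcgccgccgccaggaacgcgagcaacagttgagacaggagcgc
The first 3 windows are intronic, lie on the minus strand and begin 32.3, 9.47 and 13.9 kb from the start of their gene, and the Tchh window lies on the plus strand, wholly in an exon, 4.82 kb from the start. In the Kcnk5 window, 25 of 224 CAPS calls were modified (11.2%, 7.35 to 16.0%), spread over 17 of 24 cytosines. In the Slc25a36 window, 22 of 129 calls were modified (17.1%, 11.01 to 24.7%), and all 12 cytosines had at least 1. In the Ski window, 32 of 166 calls were modified (19.3%, 13.6 to 26.1%). The PS level was 0.385% of 260 calls in the Kcnk5 window, and PS had 0 modified calls of 114 and of 190 in the Slc25a36 and Ski windows. The TAPSβ level of these windows was 29.0%, 51.2% and 16.4%. In the Tchh window, 3 of 514 calls at 63 cytosines were modified (0.584%, 0.121 to 1.70%), with a TAPSβ level of 0.0993%. The first 3 windows were picked for their modified calls, so their levels lie above those of their genes.

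The 5hmC level of the gene bodies had a median of 3.60% (3.58 to 3.63%, an interval over genes), with quartiles of 2.85% and 4.42%. The middle 90% of genes lay between 1.83% and 5.64%, a 3.07-fold range of the uncorrected share. The full range ran from 0.165% to 17.6%. A kept gene had a median of 5252.5 base calls, which gives an interval of about ±0.506 percentage points. The SD between genes was 1.20 points, of which counting error accounts for an SD of 0.313 points and leaves 1.16. Among the 8017 genes with at least 5000 base calls the median was 3.65% and the SD beyond counting error was 1.03 points. The levels of plus-strand and minus-strand cytosines, which come from the same library and the same gene, had a Pearson's r of 0.814 over the kept genes and of 0.906 over the deeply read ones. Of the kept genes, 179 had an interval that reached down to the CAPS level of unmethylated gene starts, so nearly all gene bodies lay above it.

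A gene was called high at 1.5 times the median or more (5.4%) and low at the median divided by 1.5 or less (2.4%). By this rule 1128 genes were high (7.3% of all kept genes) and 2173 were low (14.1%). For 393 of the high and 912 of the low genes the whole interval lay beyond the limit. High genes had a median TAPSβ level of 48.8% (quartiles 42.1 and 55.2%), a median of 13.0 CpGs per kb and a median length of 17.3 kb. Low genes had a median TAPSβ level of 66.7%, 6.70 CpGs per kb and a length of 23.7 kb. The genes between the limits lay between these groups in methylation and CpG density, at 61.7% and 11.1 CpGs per kb. Low genes were of more than a single kind: 128 of them had a TAPSβ level under 20%, with a median of 30.8 CpGs per kb, and the other 2045 had a median TAPSβ level of 67.2% and 6.47 CpGs per kb. The first kind had few methylated cytosines, and the second was methylated and CpG-poor.

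**Figure D1:**
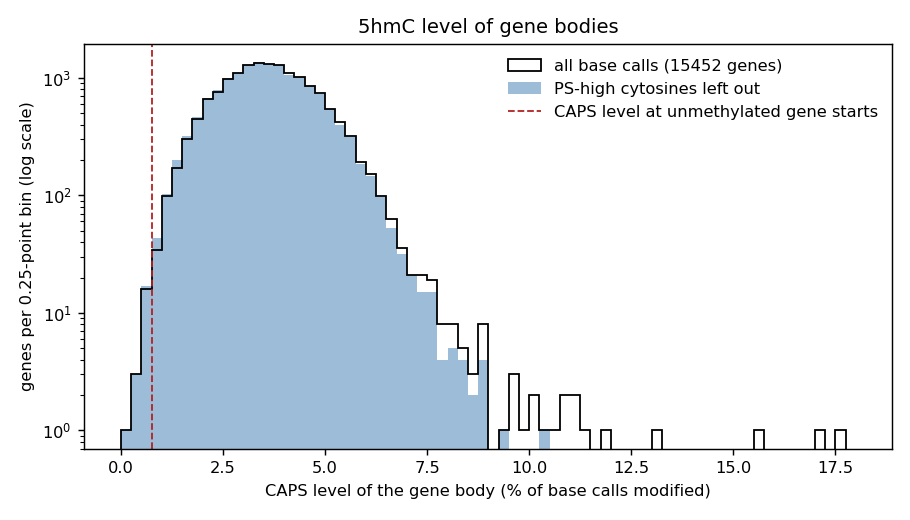
Number of genes (log axis) by CAPS level of the gene body in bins of 0.25 percentage points, for all base calls (black line) and with cytosines that were also high in PS left out (blue), and with the level at unmethylated gene starts (dashed). The bulk of the 15452 genes lies within 1.83 and 5.64%, and the tail beyond 10.5% is present only with all base calls.

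The 10 highest levels of all were 10.8% to 17.6%, and all of these genes were also high in PS. They were Gm20516, Cd244, Gm20410, Itln1, Ren1, Klra5, Nlrp4f, Klra4, Klra7 and Vmn2r88. Cd244 and the Klra genes encode receptors of natural killer cells, Itln1 a lectin of the gut, Ren1 the protease renin, Nlrp4f an oocyte NLR protein and Vmn2r88 a pheromone receptor. Gm20516 had 129 modified calls of 731 (17.6%, 15.0 to 20.6%) at a PS level of 14.9%, against a median PS level of 0.176% over all genes. Cd244 had 2197 of 12780 (17.2%, 16.5 to 17.9%) at a PS level of 15.5%, and 198 of its 380 cytosines had more than 4 times the median CAPS depth. When PS-high cytosines, those read at least 5 times in PS with 20% or more of the reads modified, were left out, the level became 1.39% in Gm20516, 6.96% in Cd244, 3.48% in Ren1, 1.77% in Nlrp4f and 0.805% in Vmn2r88. None of the 10 genes was then among the 10 highest, whereas all of the 10 lowest genes stayed the same. The part that sequence differences of the E14 line, unresolved gene copies or 5fC and 5caC have in these calls was not tested. Over all genes the step moved 164 levels by more than 1 point, changed the median to 3.58% and the highest level to 10.5%, and left 1040 of the 1128 high genes high. In all, 258 genes had a PS level of 1% or more, 82 of them high.

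For genes with at least 5000 base calls and with the PS-high cytosines left out, the 10 highest levels lay between 7.07% and 7.60%, about 2-fold above the median, and the values given next are those with all base calls. Kcnk5, a potassium channel of the two-pore family, had 730 modified calls of 9636 (7.58%, 7.06 to 8.12%). Slc25a36, a mitochondrial pyrimidine nucleotide carrier, had 385 of 5084 (7.57%, 6.86 to 8.33%), and Ski, a co-repressor of TGF-β signalling, had 1355 of 18141 (7.47%, 7.09 to 7.86%). These intervals overlap, so the order of these genes is not resolved. The others described here were Zbtb44, a zinc finger protein (7.37%), Egln3, a prolyl hydroxylase that acts on HIF (7.31%), Bag3, a co-chaperone of HSP70 (7.29%), Hs6st1, a heparan sulfate sulfotransferase (7.19%), Mreg, or melanoregulin (7.11%), and Atp1b1, a subunit of the sodium pump (7.06%). These 9 genes had PS levels of 0.139% to 0.226%, near the median of all genes, and TAPSβ levels of 37.2% to 50.6%, below the median of 61.8%. In each of them the body lay above the level of the cytosines outside genes within 50 kb, which was 3.14% around Ski and 5.40% around Kcnk5. As these genes were chosen for high bodies, this was largely given by the choice. The strands gave 7.67% and 7.48% in Kcnk5, and 8.44% and 6.205% in Egln3, the widest gap among the 9.

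The lowest of all kept genes was Prl3c1, a member of the placental prolactin family, with 1 modified call of 606 (0.165%, 0.00418 to 0.916%). The next were Vmn2r-ps113 (0.382%), Ces2b (0.428%), Trim30c (0.495%), Fam26d (0.517%), Olfr987 (0.593%), Vmn2r38 (0.631%), Ces2a (0.653%), 9430007A20Rik (0.658%) and Tchh (0.662%). Apart from Tchh, these genes had 506 to 1064 base calls and at most 7 modified ones, so their intervals are wide and all contain the level of unmethylated gene starts. Their TAPSβ levels were nevertheless 49.6% to 70.3%. Tchh, which encodes the hair follicle protein trichohyalin, was read deeply, with 41 modified calls of 6192 (0.662%, 0.476 to 0.897%). It had 61.2 CpGs per kb and a TAPSβ level of 0.511%.

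Among genes with at least 5000 base calls, the 10 lowest fell into the same 2 kinds. Tchh and Zfp503, a zinc finger gene with 49 modified calls of 5480 (0.894%, 0.662 to 1.18%), 66.4 CpGs per kb and a TAPSβ level of 1.90%, were CpG-dense and unmethylated. The other 8 had TAPSβ levels of 63.0% to 71.0% and 3.80 to 6.85 CpGs per kb. They were Vmn2r60 and Vmn2r56, pheromone receptor genes (0.971% and 1.15% with the PS-high cytosines left out), Obox3, an oocyte homeobox gene (0.988%), Slc22a27 and Slc22a30, organic anion transporters (1.11% and 1.16%), Cyp2j8, a cytochrome P450 (1.18%), Tecrl, a reductase-like gene of the heart (1.21%), and Adam34, a testis metalloprotease (1.21%). With all base calls, Slc22a30 had 1.65%. Obox3 rested on 141 modified calls of 14101, and its upper bound of 1.18% lay below the 1.25% that marks the lowest 1% of all genes. As Obox3 was chosen for its low level in these calls, this was largely given by the choice. It also overlaps another kept gene.

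The profiles of the 3 highest and 3 lowest of these deeply read genes were drawn in 20 equal slices of the body, with the PS-high cytosines left out. Kcnk5 rose from 1.16% and 2.40% in its first slices to between 5.21% and 10.4% in all later ones. Ski had no such low start and lay between 5.17% and 11.9% throughout, with 589 to 1477 base calls per slice. Slc25a36 varied most, from 1.28% in slice 14, which had only 78 base calls, to 15.1% in slice 10. Tchh lay between 0.254% and 2.35% in its first 17 slices, had 0 modified calls of 54 in the next and no base call in its last 2. Zfp503 lay at or below 1.90% in its first 18 slices, with 3.15% and 2.46% in the last 2, on 127 and 122 base calls. Vmn2r60 lay at or below 2.97% along its whole length of 79.3 kb.

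**Figure D2:**
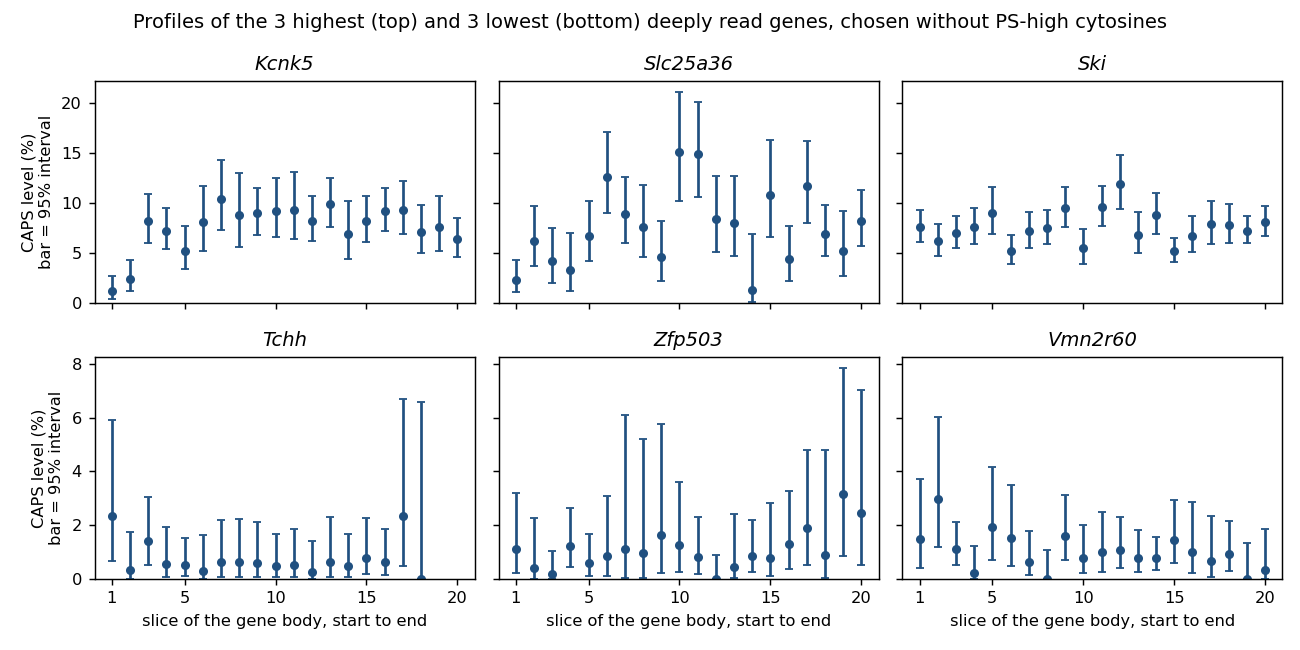
CAPS level (%) in 20 equal slices of the gene body, from start to end, for the 3 highest and the 3 lowest genes with at least 5000 base calls, chosen and drawn with PS-high cytosines left out, where points are levels and bars exact 95% intervals. The upper row reaches 15.1%, and the lower row, on a finer scale, does not exceed 3.15%.

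The 5hmC level went with the base composition of the gene body. Across the 15452 genes, Pearson's r was 0.240 and Spearman's rho 0.393 with CpGs per kb of body, and 0.315 and 0.348 with GC content. Genes are not independent replicates, and 2657 of them (17.2%) overlap another kept gene and share cytosines with it. From the decile with the fewest CpGs (median 5.08 per kb) to the ninth (15.9 per kb) the median 5hmC level rose in every step, from 2.28% to 4.23%. In the densest decile (20.2 per kb) it was lower, at 3.92%, and there the median TAPSβ level was 37.6%, against 52.3% in the ninth and 66.0% in the first. In the sparsest decile 54.3% of genes were low, against the 14.1% of all genes, and in the ninth 13.2% were high, against 7.3%.

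The relation with CpG density was not alike at all methylation levels. TAPSβ level itself had a rho of -0.484 with the 5hmC level and of -0.530 with CpG density. When genes were split into 4 equal groups by TAPSβ level, rho between 5hmC and CpG density was -0.209 in the lowest, and in the others it was 0.262, 0.387 and 0.346. Held at equal TAPSβ rank, rho with density was 0.183, and held at equal density, rho with TAPSβ was -0.354. By TAPSβ decile, the median 5hmC level was 3.86% in the first, reached 4.62% in the second (median TAPSβ 45.3%) and then fell in each step to 2.68% in the tenth (71.9%). Genes of intermediate methylation thus had the highest 5hmC levels, and both the least and the most methylated genes lay lower. The rho with the mean depth of a gene was -0.136, and that with the PS level 0.101.

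Gene length had a weak relation with the 5hmC level as a whole, with Pearson's r of -0.114 on log length and a rho of -0.0771, which was -0.157 in genes with at least 2000 base calls and -0.0544 in those with at least 200. The median was 3.58% in the 2622 genes of 5 to 10 kb, 3.71% at 10 to 20 kb, 3.69% at 20 to 50 kb and 3.64% at 50 to 100 kb, so genes up to 100 kb hardly differed by length. It was 3.47% in the 1367 genes of 100 to 200 kb, 3.01% in the 719 genes of 200 to 500 kb and 2.47% in the 188 genes of 500 kb or more. Of these longest genes 46.3% were low, against 14.1% of all genes, and 0.532% were high, against 7.3%. They were also the most CpG-poor class, with a median of 6.64 CpGs per kb against 13.3 in genes of 5 to 10 kb. Held at equal CpG density, rho with length became 0.0600, and within 4 equal groups of genes by CpG density it was -0.0127, -0.0354, 0.0567 and 0.153 from the sparsest to the densest. Within 4 such groups by length, rho with density rose from 0.212 in the shortest genes to 0.588 in the longest. In the longest group the median went from 2.72% in the sparsest genes to 4.45% in the densest.

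**Figure D3:**
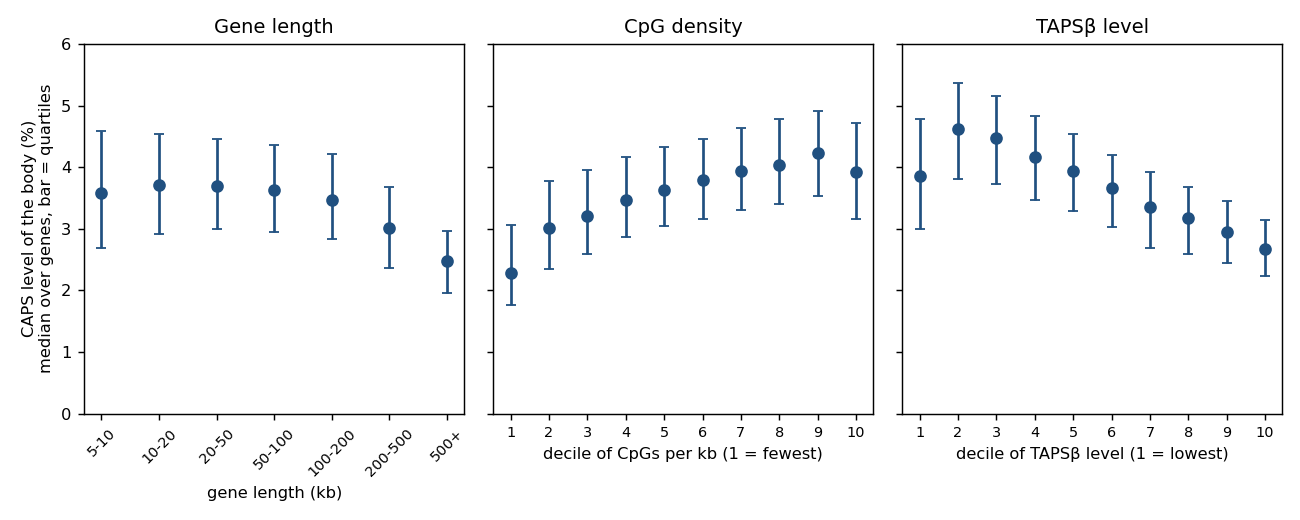
Median CAPS level of the gene body (%) with quartiles over genes as bars, by class of gene length, by decile of CpGs per kb and by decile of TAPSβ level. The level falls most beyond 100 kb of length, rises with CpG density up to the ninth decile (4.23%), and peaks in the second TAPSβ decile (4.62%).

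Chromosomes differed little, with medians from 3.31% on chromosome 13 to 3.85% on chromosome 11. A gene body resembled its surroundings to some degree. For 15182 genes with enough base calls outside genes within 50 kb, body and surroundings had a rho of 0.489, the body was higher in 9049 (59.6%), and the median difference was 0.233 points (quartiles -0.403 and 0.939). The surroundings had a median of 3.34%. High genes lay in surroundings with a median of 4.08%, and low genes in surroundings of 2.42%.

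Exons and introns of the same body were compared in 14622 genes with at least 200 base calls in each. Pooled, exons had 3.84% and introns 3.52%, a ratio of 1.09 (1.087 to 1.092). This lay above the pooled ratio of every length class below 500 kb, which ran from 0.996 at 50 to 100 kb to 1.07 at 200 to 500 kb. It was 1.15 in genes of 500 kb or more. Exons held 48.0% of the calls at 5 to 10 kb and 2.40% at 500 kb or more, so pooling weighs the length classes unequally. Gene by gene the difference was small, with a median of 0.0896 points (quartiles -0.670 and 0.888), and the exons were higher in 7777 genes (53.2%). Between 50 and 100 kb the median difference was -0.00246 points. In the 188 genes of 500 kb or more it was 0.373 points, and exons were higher in 70.7% of them.

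Along the body, the pooled 5hmC level changed by small steps and was highest at the end. It was 3.40% in the first of 20 slices, 3.65% (3.63 to 3.66%) in the third, 3.53% over the 4 middle slices, 3.47% (3.46 to 3.48%) in slice 15 and 3.79% in the last. The last slice was 1.11 times the first (1.108 to 1.119) and 1.07 times the middle (1.070 to 1.078). The TAPSβ level was 44.6% in the first slice and 60.6% in the last. The ratio of last to first slice was 1.31 in genes of 5 to 10 kb and 1.29 at 10 to 20 kb, came down to 1.02 (1.010 to 1.031) at 200 to 500 kb and was 1.06 (1.041 to 1.072) in genes of 500 kb or more. The last slice lay above the middle in every length class, from 1.01 times (0.988 to 1.04) at 5 to 10 kb, where the interval holds 1, to 1.16 times in genes of 500 kb or more. By CpG density the ratio of last to first slice was 1.28 in the densest of the 4 groups and 1.03 in the sparsest.

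**Figure D4:**
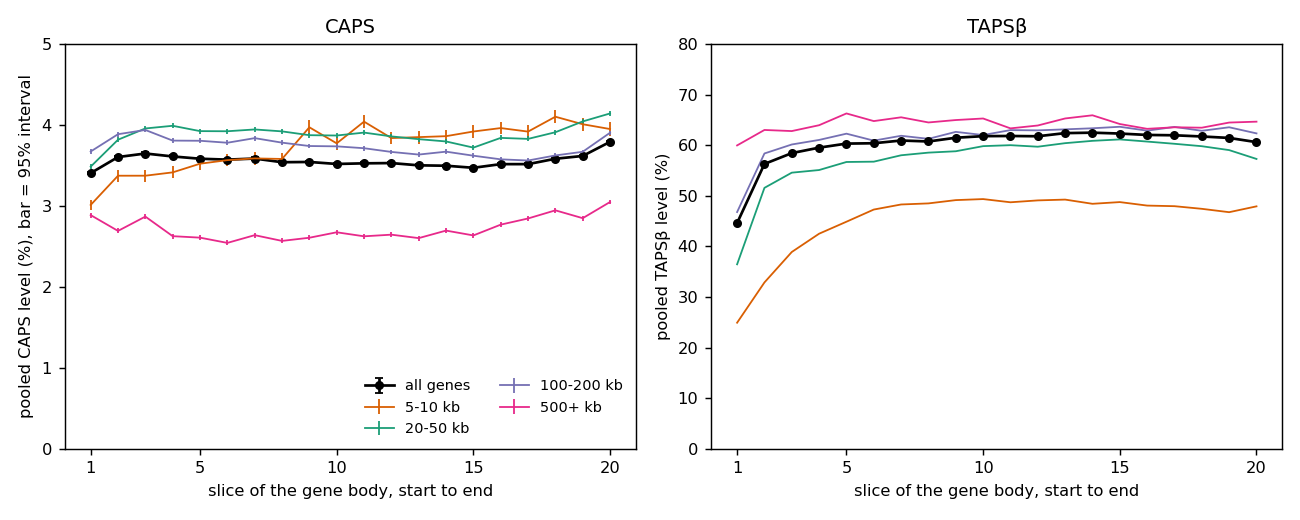
Pooled CAPS level (%, bars are 95% intervals) and pooled TAPSβ level (%) in 20 equal slices of the gene body, for all genes and for 4 length classes. The CAPS level of all genes rises to 3.79% in the last slice, genes of 500 kb or more lie lowest throughout, and the TAPSβ level is lowest in the first slice.

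In single genes the end was not generally the highest place. Among 4671 genes with at least 200 base calls in every slice, the last slice lay above the middle in 2483 (53.2%) and the first in 2278 (48.8%). The highest slice was most often the last, in 329 genes (7.04%), closely followed by slice 2, in 320 (6.85%). Slices 1, 3 and 4 were highest in 281, 284 and 293 genes. An even spread over 20 slices gives 5%. The last slice was the lowest in 153 (3.28%). The median ratio of the highest to the lowest slice of a gene was 4.05, and the median SD over slices was 1.30 points, both of which include counting error.

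The next CAPS levels, on a scale of base pairs, leave out PS-high cytosines and include genes with too few base calls. The level was 3.62% at 4.5 to 5 kb before the start of the 9328 genes of 20 kb or more. In the first 500 bp after the start it was 1.02%. It was 2.92% at 1 to 1.5 kb after the start and 3.90% at 5 to 5.5 kb, while TAPSβ went from 2.78% to 21.2% and 55.4%. Before the gene end the level went up from 3.74% at 9.5 to 10 kb to 4.13% at 1 to 1.5 kb, and it was 3.81% in the last 500 bp and 3.50% at 4.5 to 5 kb past the end. TAPSβ changed from 61.9% to 58.3% over the first of these stretches. In the 909 genes of 200 kb or more, the level was 1.28% in the first kb, 3.36% at 5 to 10 kb and 3.13% at 100 to 200 kb from the start.

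Families were formed from the letters of a symbol before its first digit, and 199 such stems had at least 10 kept genes. The highest medians belonged to Mtap (microtubule-associated proteins, 4.69%, 10 genes), Atxn (ataxins, 4.67%, 10 genes), Cdc (cell division cycle genes, 4.57%, 30 genes), Rpl (large ribosomal subunit proteins, 4.54%, 11 genes) and Cyb (cytochromes b and their reductases, 4.41%, 10 genes). These stems spread over 8 to 17 chromosomes. They are the top of 199 ranked stems and most have 10 or 11 genes, so their medians are high in part by selection. High and low genes of 10 were 2 and 1 in Mtap, 1 and 0 in Atxn, and 2 and 1 in Cyb. Cdc had 8 high genes of 30 (26.7%, against 7.3% of all genes) and no low one (against 14.1%), and 25 lay above the median of their own CpG density decile, as did 7722 of all 15452 genes. The same count was 7 of 10 in Mtap, 8 of 10 in Atxn, 6 of 11 in Rpl and 6 of 10 in Cyb. Its range ran from 2.45% in Cdc25c, a phosphatase that activates CDK1, to 6.51% in Cdc42ep3, an effector of the GTPase CDC42. Rpl was the most mixed, from 1.10% in Rpl18 (TAPSβ 2.35%) to 7.57% in Rpl3l, with 4 high and 2 low genes of 11. In Mtap the range ran from 2.29% in Mtap2 (267 kb) to 5.77% in Mtap1s, in Atxn from 3.00% in Atxn1 (410 kb) to 5.87% in Atxn7l3, and in Cyb from 2.31% in Cyb5d2 to 6.01% in Cyb5r1.

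The lowest medians belonged to families of clustered genes with few CpGs. Prl, the placental prolactins, had a median of 1.24%, and all 14 kept genes, on a single chromosome, were low, against 14.1% of all genes. The highest of them was Prl itself, the pituitary hormone gene, at 2.11% (1.25 to 3.31%). None of the 14 lay above the median of its own CpG density decile, and this count was 26 of 109 genes in Vmn, 4 of 19 in Ces, 4 of 35 in Olfr and 6 of 21 in Serpinb. These families were chosen for their low medians, so this count and the counts of low genes were largely given by the choice. Vmn, the vomeronasal receptors, had a median of 1.64% in 109 genes, of which 82 were low (75.2%) and 4 high (3.67%, against 7.3% of all genes). Of these genes 20 had a PS level of 1% or more, and with the PS-high cytosines left out the median was 1.49% and that of Vmn2r88, the highest, fell to 0.805% from 10.8%. Ces, the carboxylesterases, had 1.81% in 19 genes on a single chromosome, with 14 low genes (73.7%) and a range from 0.428% in Ces2b to 3.77% in Ces1b. Olfr, the olfactory receptors, had 1.86% in 35 genes, with 26 low ones (74.3%), from 0.593% in Olfr987 to 4.48% in Olfr70. Serpinb, intracellular protease inhibitors, had 1.99% in 21 genes, with 14 low ones (66.7%), from 0.883% in Serpinb9f to 4.94% in Serpinb9b. These 5 families had median TAPSβ levels of 63.0% to 68.1%, at or above that of all genes, and 3.85 to 6.01 CpGs per kb. Members of such families resemble each other in sequence, and how reads were divided between copies was not tested.

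Genes were also grouped in lists by function, given here by their kept members beside 7.3% high and 14.1% low over all genes. The pluripotency network had the highest median, 4.74% in 21 kept genes of 30, with 7 high and 3 low. Its median TAPSβ level was 35.8%, against 61.8% over all genes. Nanog and Dppa4 had PS levels of 2.04% and 1.03%, and with PS-high cytosines left out their levels changed from 4.52% to 3.19% and from 5.20% to 4.55%, and the median of the list to 4.55%. The highest were Tcl1, a co-activator of AKT, with 131 modified calls of 1560 (8.40%, 7.07 to 9.89%), and Zfp281, a zinc finger factor (6.58%, 5.02 to 8.44%). The low members were Tbx3 (1.37%, 1.09 to 1.70%) and Zfp42, also called Rex1 (1.93%, 1.48 to 2.47%), and Klf4 (2.06%, 1.53 to 2.71%), the last named after its value was seen. Their TAPSβ levels were 3.36%, 4.12% and 5.97%, so these bodies were nearly unmethylated.

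Signalling lists that bear on the culture medium also had medians above that of all genes. The FGF and ERK pathway had 4.47% in 28 kept genes, with 8 high and none low, among them the receptor Fgfr1 and Map2k1, which encodes the kinase MEK1 (6.07%, 5.63 to 6.54%). Fgfr1 is annotated under a pair of identifiers on chromosome 8, with 6.69% (5.88 to 7.57%) in the 13.6-kb and 5.01% (4.71 to 5.31%) in the 62.1-kb model, both of which are counted. The lowest were the receptor Fgfr3 (2.92%) and the phosphatase Dusp4 (2.99%). The Wnt and β-catenin pathway had 4.26% in 31 genes, with 4 high and 1 low. Its highest were the transcription factors Tcf7 (5.89%, 5.38 to 6.44%) and Tcf7l1 (5.80%, 5.59 to 6.01%), and its lowest the receptor Fzd5 (1.54%, 1.18 to 1.98%, TAPSβ 3.60%) and the ligand Wnt5a (2.47%, 2.13 to 2.84%).

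Chromatin lists lay at similar levels. The list of DNA methylation and demethylation genes had 4.17% in 23 genes, with 2 high and 1 low. Its highest were Ung, the uracil glycosylase, and Uhrf1, which brings DNMT1 to hemimethylated sites, both at 5.84%, and its lowest were the glycosylase Neil3 (2.16%, 1.84 to 2.53%) and Mbd5 (2.50%, 2.35 to 2.66%). Polycomb and Trithorax genes had 4.18% in 28 genes, with 2 high and none low. Jarid2 (6.18%, 5.92 to 6.45%) and Suz12 (5.74%, 5.17 to 6.35%), a partner and a core subunit of the H3K27 methyltransferase complex, were highest. Bmi1 (2.63%) and Pcgf5 (3.12%), of the ubiquitin ligase complex, were lowest.

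Lists of replication, RNA processing, protein turnover and repair genes had medians on both sides of that of all genes. Splicing and RNA polymerase II genes had 3.996% in 31 genes, with 5 high and 2 low, from 1.59% in Srsf1 (TAPSβ 8.63%) and 2.14% in Snrnp200 to 6.14% in Cdc5l and 6.62% in Hnrnpc. DNA replication genes had 3.85% in 37 genes, with 6 high and 1 low. The range of this list was set by subunits of the same clamp loader, Rfc5 at 7.05% (6.08 to 8.12%) with Mcm3, of the replicative helicase, next at 6.31%, and Rfc3 at 2.02% (1.38 to 2.83%) with Rfc4 at 2.62%. Proteasome genes had 3.84% in 30 genes, with 2 high and 1 low, from 2.33% in Psma1 and 2.71% in Psmd8 to 5.49% in Psmd3 and 5.70% in Psmd7. DNA repair genes had 3.44% in 38 genes, with 1 high and 3 low, from Lig4 (1.98%) and Atr (2.16%) to Ercc2 (5.34%) and Msh6 (5.79%).

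The lists of synaptic, germline, imprinted, extracellular matrix and lineage genes had medians below that of all genes, as had the DNA repair list. Expression of these genes was not measured. The 44 synaptic and neuronal adhesion genes had the lowest, 2.16%, with 28 low and none high. They were also long and CpG-poor, with medians of 728 kb and 5.81 CpGs per kb, and the median gene of the sparsest density decile had 2.28%. The cell adhesion genes Cntn6 (1.46%, 1.33 to 1.61%, on 28123 base calls) and Cntn3 (1.60%, 1.46 to 1.76%) were lowest, and Cntnap1 (3.92%) and Dlg1 (3.79%) highest. Germline genes had 2.92% in 30 genes, with 10 low and none high. Their lowest were Dazl, an RNA-binding protein of germ cells (0.783%, 0.339 to 1.54%), and Sycp2, of the synaptonemal complex (1.49%), and their highest Piwil4 (4.26%) and the meiotic gene Msh5 (4.99%).

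Imprinted genes had 3.00% in 32 kept genes, with 8 low and none high, from Dcn (1.39%, 1.06 to 1.79%) and Peg3 (1.52%, 1.24 to 1.85%) to Plagl1 (4.97%) and Cd81 (5.01%). Extracellular matrix genes had 3.11% in 37 genes, with 2 high and 6 low. The laminin gene Lama2 (1.91%) and the collagen gene Col11a1 (1.94%) were lowest, and the basement membrane gene Nid2 (6.03%) and the fibronectin gene Fn1 (6.39%, 6.05 to 6.75%) highest. Lineage transcription factors had 3.54% in 31 genes, with 6 low and none high, and the list holds Runx2 under a pair of identifiers. Sox17 (1.08%, 0.772 to 1.48%), a factor of endoderm, was CpG-dense and nearly unmethylated, at 44.1 CpGs per kb and a TAPSβ level of 5.32%, whereas Rfx6 (1.58%, 1.24 to 1.97%) was methylated, at 67.6%. Eomes (4.64%) and Meis1 (4.35%) were highest.

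Read against the median of their own CpG density decile, which 7722 of all 15452 genes exceeded, the lists with medians above that of all genes had more members above it than below. The counts were 15 of 21 in the pluripotency network, 20 of 28 in the FGF and ERK pathway, 19 of 31 in the Wnt pathway, 20 of 28 in Polycomb and Trithorax, 18 of 23 in DNA methylation, 17 of 31 in splicing, 26 of 37 in replication and 18 of 30 in the proteasome. In the other lists fewer members lay above it than below. There the counts were 5 of 44 in the synaptic genes, 7 of 31 in the lineage factors and 11 of 30 in the germline. They were 14 of 32 in the imprinted, 15 of 38 in the DNA repair and 16 of 37 in the extracellular matrix genes. Lists were sorted and counted by the same CAPS levels, so this split follows in part from the sorting. They also differed in methylation, with median TAPSβ levels from 35.8% in the pluripotency network to 66.9% in DNA repair. The lineage factors, whose 5hmC median was below that of all genes, had 48.8%. Lists were not compared at equal TAPSβ level. Counts of the splicing, imprinted and extracellular matrix genes lay near the share of all genes. In lists this small, those of the proteasome, Wnt, DNA repair and germline genes were not far from it either. The share of high genes was 7.14% in Polycomb and Trithorax, 6.67% in the proteasome and 8.70% in DNA methylation, near the 7.3% of all genes. Their shares of low genes were 0%, 3.33% and 4.35%, against 14.1%.

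**Figure D5:**
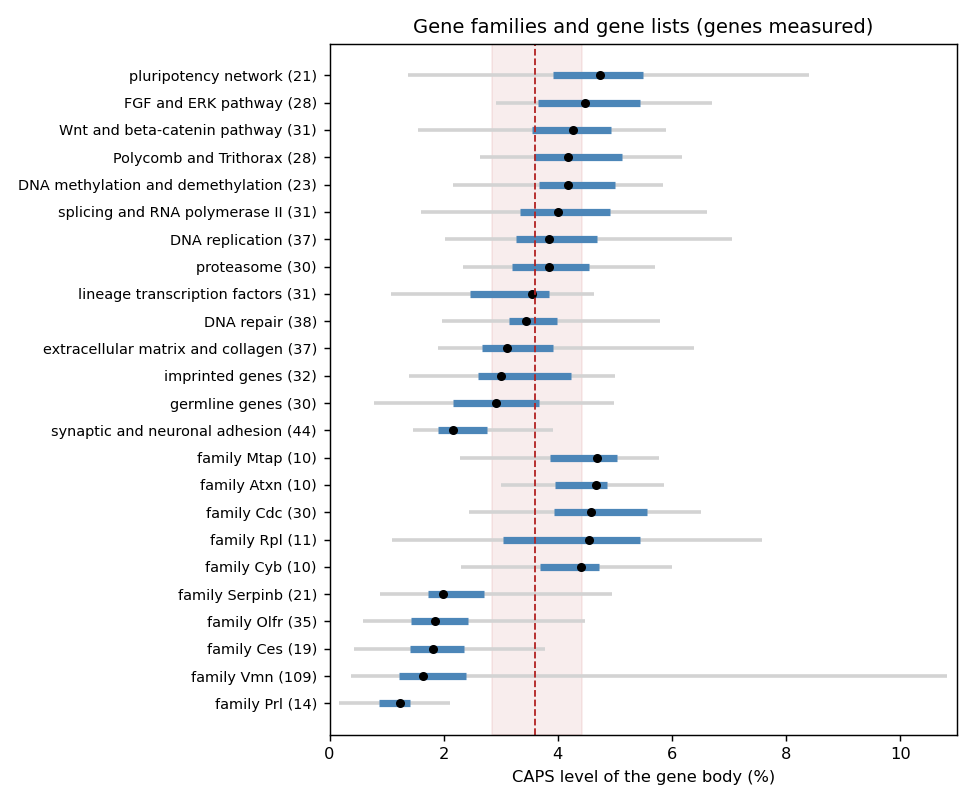
CAPS level (%) of the gene bodies in each gene list and in the 5 highest and 5 lowest families, with the number of genes in brackets, where points are medians, thick bars quartiles and thin bars the range. The dashed line and shaded band are the median (3.60%) and quartiles of all genes, and the points run from 4.74% in the pluripotency network to 1.24% in the Prl family.

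The 412 genes with too few base calls were not a random part of the annotation. They had a median length of 8.15 kb and 4.45 CpGs per kb, 104 had no base call, and 222 carried provisional Gm names. Olfr (21), Vmn (16) and Prl (12) were the most frequent named stems among them. Pooled, they had 2.39%. The 90 genes just above the minimum, within 100 base calls of it, had a median of 2.28%, and the 79 just below it had 1.95%.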

How the data were processed

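Per the labels and the study's methods, the authors trimmed reads (Trim Galore 0.3.1), mapped them to mm9 with spike-ins (BWA 0.7.12), removed duplicates (Picard 2.3.0) and called bases with asTair. They deposited, per CpG cytosine, the count of modified and that of unmodified reads, not normalized, and the fraction made from them, which was not used. All listed autosomal cytosines were reference CpGs in NCBIM37. The authors left artifact-prone regions and E14 variants out of their later analyses, and whether the deposited counts carry this exclusion is not given in the sources used here. The median depth of 9 reads makes single cytosines imprecise, so counts were summed per gene body, with exact 95% intervals. PS-c and spike-ins were not analysed here, and 1 gene that the naming rule picks is not reported here.

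Members and lists were chosen with earlier results of these data known. Named are the 10 highest and 10 lowest genes, the same among genes with 5000 or more base calls without PS-high cytosines, the 5 highest and 5 lowest families with their extreme genes, and the 2 highest and 2 lowest members of each list. The summaries by high and low genes, by own density decile, at unmethylated starts, by distance in bp, around the base-call minimum and of extreme slices were added after the values were seen. The gene summaries were tested on simulated data. Computations ran in Python 3.11.15 with pandas 2.3.3, numpy 2.4.6, scipy 1.17.1 and matplotlib 3.10.9.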

Additional observations from a re-analysis of the deposited data

How the results depend on the processing

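No paired analysis was possible because each method had 1 library, and no replicate could be left out. None of these processing alternatives turned a direction, whereas holding CpG density or TAPSβ rank equal gave the coefficient with gene length the opposite sign (0.0600 and 0.0528). The median level of 3.60% became 3.65% with at least 2000 base calls per gene, 3.67% as a mean of single cytosines with 5 or more reads, 3.58% without PS-high cytosines and 3.64% without cytosines within 1 kb of any coding transcript start. Spearman's coefficient with gene length, -0.0771, became -0.0544 with at least 200 base calls and -0.157 with 2000, so its size depends on this minimum. The coefficient with CpG density, 0.393, was 0.370 with 2000 base calls, 0.417 without PS-high cytosines, 0.419 without start-proximal cytosines, 0.419 in genes that overlap no other and 0.376 on the plus strand. The exon to intron difference of 0.0896 points was 0.116 without start-proximal cytosines and 0.0608 on the minus strand. The ratio of last to first slice, 1.11, was 1.12 as a mean of cytosines, 1.07 without start-proximal cytosines and 1.11 in non-overlapping genes. Leaving out cytosines of excess coverage moved none of these beyond its interval. Of 39 named genes, 11 moved beyond their interval without PS-high cytosines, 7 on the minus and 10 on the plus strand. Depth limits genes near 500 base calls, whose intervals span more than the gap between most families, and a single library leaves the spread between cultures unknown.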
